A study of Mus musculus with 36 samples.

Results

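The 7 mRNAs described here, Upf1, Upf2, Upf3a, Upf3b, Smg1, Smg5 and Smg6, encode core factors of nonsense-mediated decay (NMD) and were taken by gene symbol from the 16614 genes of a count table of mouse brain. All 7 had a row of their own in the table, and all 7 passed the filter on low counts in every comparison. Ribosome-protected fragments (RPFs, or footprints) had been sequenced from the pellet of a sucrose gradient, which holds dense ribosome clusters, and from fraction 5/6, which holds lighter polysomes, and RNA-seq had been made from the same kind of homogenate. The mice were C57BL/6 wild type (WT) or carried an Fmr1 knockout (FMR1 KO), were 5 days old, and gave whole brains that were pooled by 10 for each preparation. Digestion was by standard nuclease in 10 mM MgCl2 or by low nuclease in 2.5 mM MgCl2, named below as the standard and the low nuclease preparation. RNA-seq libraries were grouped with the standard preparation where their title names the M protocol, and with the low nuclease preparation otherwise. Each genotype, kind of library and preparation made a group, 12 groups of 3 libraries in all.

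NMD removes mRNAs on which translation ends too early, and it also tunes many normal transcripts. UPF1, an RNA helicase, is phosphorylated by the kinase SMG1 and is bridged by UPF2 to UPF3A or UPF3B, which contact the exon junction complexes left behind by splicing. SMG6 then cuts the mRNA, while SMG5 helps to recruit the enzymes that remove the tail and the cap. In neurons UPF1 is also known from RNA granules with the Staufen proteins, and loss of UPF3B is a known cause of X-linked intellectual disability in people. The measurements here are of the mRNAs that encode these proteins and of the ribosomes on them, not of decay itself.

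In GRCm38 the genes are Upf1 (ENSMUSG00000058301) at chr8:70331525-70353278 on the minus strand, Upf2 (ENSMUSG00000043241) at chr2:5951469-6056703 on the plus strand, and Upf3a (ENSMUSG00000038398) at chr8:13785615-13799193 on the plus strand. Upf3b (ENSMUSG00000036572) is at chrX:37091678-37110322 on the minus strand. Smg1 (ENSMUSG00000030655) is at chr7:118131308-118243670 on the minus strand, Smg5 (ENSMUSG00000001415) at chr3:88336260-88362338 on the plus strand, and Smg6 (ENSMUSG00000038290) at chr11:74925823-75164448 on the plus strand. Their coding sequences differ widely in length, from 1266 nt for Upf3a and 1416 nt for Upf3b to 10974 nt for Smg1.

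The gene counts of Cdk8, which took 36.7% to 63.4% of the counts of standard footprint libraries, were left out of every level, given as CPM (counts scaled to the total of the library). Standard footprint libraries held 4284209 to 21274803 counts without Cdk8, and standard RNA-seq libraries 112240104 to 147207607. Fmr1 RNA-seq was lower in FMR1 KO (log2 fold change -1.90, adjusted p = 3.67e-05, edgeR quasi-likelihood test). In the library labelled WT fraction 5/6 replicate 3, however, Fmr1 stood at 3.17 CPM against 100.1 and 68.6 CPM in the other WT fraction 5/6 libraries. Several fraction 5/6 results are therefore also given without that library, while peaks, percentiles and the matching of patterns include it. In the standard preparation FMR1 KO RNA-seq held 0.061 to 0.131 CPM of the Y-linked Ddx3y, against 35.4 to 38.0 CPM in WT RNA-seq and 33.6 to 56.2 CPM in standard FMR1 KO footprints, so that RNA-seq does not match its footprints in sex. In the low nuclease preparation, the RNA-seq libraries WT replicate 2, FMR1 KO replicate 2 and FMR1 KO replicate 3 had more than 80% of their counts on 10 genes. All 5 neuronal markers checked were present in every library, at a summed 5253 to 11210 CPM in the standard ones. In whole brain, fewer cells of a type and less RNA per cell cannot be told apart.

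Peaks of footprints had been called by the authors on the transcripts of the 12 standard libraries. The middle of each called interval was taken here as its zenith, which need not be the position of greatest coverage. An interval on Upf1 was as wide as 78 nt. The sequences below are a selection of zeniths that recurred in 2 or more libraries, shown because footprints piled up there; each runs over 27 nt of the coding sequence with the codon at the zenith in capitals.

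Upf1 codon 755: cctatgttcttcTACgtgacgcagggc
Upf2 codon 391: aaaggcgagctaAGTgaggacaggcac
Upf3b codon 270: ccaaagattaagTTGctcaggaaaccg
Upf3b codon 377: aaggcttttaagCGAaaggaagaagaa
Upf3b codon 450: gacagcatcaagCCTggagattcccca
Upf3b codon 466: ggtattagccatAGAaaagaaggagga
Smg6 codon 488: cctacatcttggGGTgattcacgtcag

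The Upf1 site was found in 3 pellet and 3 fraction 5/6 libraries, with heights of 10 to 27, and the Upf2 site in 3 pellet libraries and 1 fraction 5/6 library. The Upf3b site at codon 377 was found, within 6 nt, in all 3 FMR1 KO pellet libraries and 1 FMR1 KO fraction 5/6 library. Their zeniths lay 1123 to 1130 nt from the start codon, with WT zeniths just before them, at 1121 nt in pellet replicate 1 and at 1118 and 1115 nt in fraction 5/6 replicates 1 and 2, and one at 1112 nt in the library labelled WT fraction 5/6 replicate 3. The codon 377 site was 77.8% purine, as was the site at codon 466. The whole Upf3b coding sequence was 67.1% purine and its last 25%, where both sites lie, 70.1%. The sites at codons 270 and 450 were 59.3% and 51.9% purine, so composition differed between the Upf3b sites.

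The levels of the mRNAs were first compared with each other, per kb of exon for RNA-seq and per kb of coding sequence for footprints. Upf1 led in WT RNA-seq with 20.8 ± 4.09 CPM per kb (SD, n = 3), followed by Smg5 with 11.7 ± 0.85. Smg6, Smg1, Upf2 and Upf3a lay between 5.75 and 4.61 CPM per kb, each within the spread of its neighbour. Upf3b was lowest, at 2.88 ± 0.27 CPM per kb, beyond the spread of the next gene. FMR1 KO RNA-seq gave the same order. In the WT pellet Upf1 again led with 45.2 ± 3.39 CPM per kb and Smg5 followed with 24.5 ± 4.66, but Upf3b was next with 15.997 ± 2.13. Smg6, Upf2, Upf3a and Smg1 lay between 9.58 and 8.74 CPM per kb in the WT pellet, within the spread of their neighbours. Placed among all genes by level per kb, Upf3b was at percentile 41.8 of WT RNA-seq, 71.2 of the WT pellet and 76.7 of WT fraction 5/6. Upf1 was high in each of these groups, at percentiles 84.3, 87.9 and 84.5.

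**Figure D1:**
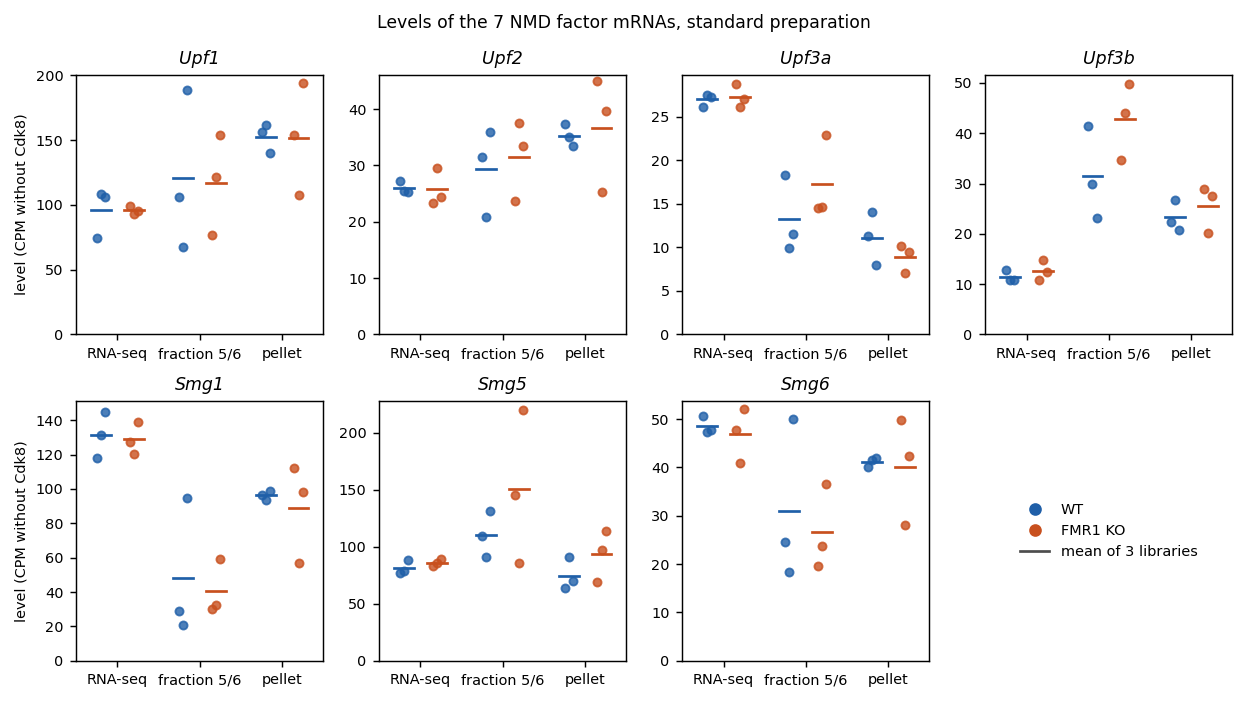
Levels (CPM without Cdk8, linear axes from 0) of the 7 NMD factor mRNAs in the standard preparation by kind of library, with WT in blue and FMR1 KO in orange; points are single libraries and lines the means of 3. The RNA-seq libraries of Upf3b lie between 10.8 and 14.8 CPM, below all of its footprint libraries, and WT and FMR1 KO points overlap in every footprint group of the 7 genes.

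Loss of FMRP was compared with WT for each kind of library. The mRNA of Upf1, the helicase, stood at 74.3, 108.2 and 105.8 CPM in WT RNA-seq and at 98.9, 92.9 and 95.6 CPM in FMR1 KO RNA-seq. Upf3b stood at 12.8, 10.9 and 10.9 CPM in WT RNA-seq and at 10.8, 14.8 and 12.4 CPM in FMR1 KO RNA-seq. Both genes thus had overlapping groups. None of the 7 passed the test in RNA-seq (0.0735% of all genes tested did, 12 of 16333), with 0 at an unadjusted p under 0.05 and 0 by DESeq2. Their log2 fold changes ran from -0.03 for Smg6 to 0.17 for Upf3b (SE 0.15, adjusted p = 0.999, edgeR). Beside the X-linked Upf3b, the X-linked Eif2s3x, whose partner lies on the Y chromosome, was 1.65-fold higher in FMR1 KO RNA-seq (adjusted p = 0.0165, edgeR); the part of the sex difference in the Upf3b value was not tested.

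The pellet gave the same count for genotype. Smg5, the adaptor that recruits decay enzymes, stood at 63.8, 90.8 and 69.5 CPM in the WT pellet and at 68.7, 97.3 and 113.9 CPM in the FMR1 KO pellet. Upf3a, the paralog of Upf3b, stood at 11.3, 14.1 and 7.97 CPM in the WT pellet and at 10.1, 7.02 and 9.45 CPM in the FMR1 KO pellet. These genes had the largest difference in each direction, yet their groups overlapped, and none of the 7 passed the test in pellet abundance (0.0152% of all genes did). The log2 fold changes ran from -0.28 (SE 0.18) for Upf3a to 0.40 (SE 0.26) for Smg5, with 0 at an unadjusted p under 0.05 and 0 by DESeq2. In the low nuclease preparation the Smg5 value was -0.54, of the opposite sign.

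Fraction 5/6 also showed no called difference for genotype. Smg1, the kinase of UPF1, stood at 28.9, 20.9 and 94.8 CPM in WT fraction 5/6 and at 29.9, 32.4 and 59.3 CPM in FMR1 KO fraction 5/6. The WT library labelled replicate 3 was the highest of the 6 for Smg1. None of the 7 members passed the test, nor did any gene (0% of 13108 by edgeR). Over all genes, 598 had an unadjusted p under 0.05 and DESeq2 called 77, no member among either. The Smg1 log2 fold change, -0.53 with all libraries, was 0.27 without WT fraction 5/6 replicate 3. In the same way Smg6 went from -0.51 to -0.11 and Upf1 from -0.32 to 0.04. Ribosome occupancy, the footprints of the pellet set against RNA-seq, was tested between genotypes as an interaction, and again none of the 7 passed (0.0669% of all genes did), with values from -0.34 for Upf3a to 0.27 for Smg5, 0 at an unadjusted p under 0.05 and 0 by DESeq2. The members' genotype differences had log2 SEs up to 0.15 in RNA-seq, 0.26 in pellet abundance, 0.48 in fraction 5/6 and 0.28 in occupancy. Differences of that size, and larger ones, could therefore have gone uncalled.

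Ribosome occupancy within a genotype separated the 7 mRNAs. Relative to the median of all genes, Upf3b, Upf1 and Upf2 carried the most footprints per RNA in the WT pellet. Smg5, Smg6 and Smg1 had fewer but more than the median gene, and Upf3a about as many as that gene. RNA-seq counts also cover UTRs, and this order was not corrected for length. Over all transcripts, coding sequence made 3372 of 4618 nt of exon for Upf1, 1455 of 3999 nt for Upf3b and 1266 of 5865 nt for Upf3a. The part of length in the order was not tested. Upf3b stood at 22.3, 26.7 and 20.8 CPM in the WT pellet, all above the 12.8, 10.9 and 10.9 CPM of WT RNA-seq. Its occupancy was 2.11 ± 0.14 (log2, SE; adjusted p = 1.86e-07, edgeR), the 875th highest of 16437 genes. Upf1 stood at 156.1, 161.7 and 139.7 CPM in the WT pellet, without overlap with its 74.3 to 108.2 CPM in RNA-seq. Its occupancy was 1.77 ± 0.15 (adjusted p = 9.93e-07, edgeR). Upf2, the bridge between UPF1 and the UPF3 proteins, rose from 27.2, 25.5 and 25.2 CPM in WT RNA-seq to 37.4, 35.004 and 33.4 CPM in the WT pellet. Its occupancy was 1.55 ± 0.13 (adjusted p = 1.55e-06, edgeR).

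Of the 7 members, 6 were called higher and 0 lower in the WT pellet, where 30.6% of all genes were called higher and 35.9% lower (66.5% in either direction). The SMG mRNAs had lower values than these UPF mRNAs, with 0.97 for Smg5, 0.87 for the endonuclease Smg6 and 0.66 for Smg1 on the log2 scale. Upf3a, at 26.2, 27.6 and 27.3 CPM in WT RNA-seq and 11.3, 14.1 and 7.97 CPM in the WT pellet, had an occupancy of -0.19 ± 0.13 (adjusted p = 0.23, edgeR). In CPM, Smg1 stood at 118.3, 131.3 and 145.1 in WT RNA-seq, above its 93.6 to 98.8 in the WT pellet, although its fitted occupancy was positive, so the size and for some members the sign of these values depend on the scaling. With library size alone in place of TMM, the median of all genes moved by -1.11, and only Upf1 and Upf3b were called higher, Upf3a was called lower, and Smg5, Smg6 and Smg1 turned to -0.13, -0.24 and -0.45. Of all 16437 genes 1328 were then called higher and 10740 lower. The low nuclease preparation kept only Smg5 and Upf1 as higher in WT, with Upf3a called lower, against 3699 of all 16042 genes higher and 3036 lower. Upf3b (1.18, adjusted p = 0.163, edgeR), Upf2 (0.76), Smg6 (0.68) and Smg1 (0.23) were not called there, with more than 80% of the counts of its WT RNA-seq replicate 2 on 10 genes. In the standard preparation, TMM and library size alone gave nearly the same distance from the median gene. It was 2.3 for Upf3b and 1.92 for Upf1 with either, and -0.04 and -0.03 for Upf3a.

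In the FMR1 KO pellet, 6 members were called higher and 1 lower, against 31.7% and 34.8% of all genes (66.5% in either direction). Upf3b stood at 28.9, 20.3 and 27.6 CPM against 10.8 to 14.8 CPM in FMR1 KO RNA-seq, with an occupancy of 2.1 ± 0.14 (adjusted p = 2.02e-07, edgeR). Upf1 had 1.73 and Upf2 1.58 on the log2 scale. Upf3a fell, with an occupancy of -0.53 ± 0.13 (adjusted p = 0.00448, edgeR), from 28.8, 26.2 and 27.1 CPM in RNA-seq to 10.1, 7.02 and 9.45 CPM. Without replicate 1 of every group, Upf3a (adjusted p = 0.0693, edgeR) and Smg1 (adjusted p = 0.078) were no longer called. With library size alone the median moved by -1.09. Upf1, Upf2 and Upf3b were then called higher and 2 members lower, while Smg6 and Smg1 turned to -0.23 and -0.53. Of all genes 1501 were then higher and 10329 lower. In the low nuclease preparation the FMR1 KO occupancy of Upf3b was -0.17 (adjusted p = 0.85, edgeR), of the opposite sign, with more than 80% of counts on 10 genes in FMR1 KO RNA-seq replicates 2 and 3.

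Fraction 5/6 had 4 members called higher and 0 lower in each genotype, where 31% of all genes were higher and 30.4% lower in WT (61.4% in either direction) and 27.8% higher and 29.8% lower in FMR1 KO (57.7%). Upf3b stood at 41.3, 30.0 and 23.2 CPM in WT and 34.8, 44.0 and 49.7 CPM in FMR1 KO fraction 5/6. Its occupancy was 2.71 in WT and 2.66 in FMR1 KO on the log2 scale. Smg5 followed with 1.69 and 1.67, then Upf1 with 1.52 and 1.16, and Upf2 with 1.4 and 1.21. Smg5 and Upf3b, then, headed the order in fraction 5/6, whereas Upf3b and Upf1 headed it in the pellet. Neither order was corrected for length. No footprint peak of Smg5 was called in coding sequence or in fraction 5/6, so where its standard counts lie on the gene was not measured. Library size alone moved the median by -1.21 in WT and -0.91 in FMR1 KO and left 1 and 2 members called higher, where 1098 and 1314 of all 16445 genes were. With the low nuclease preparation and the same unequal RNA-seq libraries, the FMR1 KO values of Upf3b and Upf2 turned to -0.13 and -0.47, neither called, while Upf3b in WT was 1.98 (adjusted p = 0.0251, edgeR). Without WT fraction 5/6 replicate 3, Smg1 was called lower in WT (-1.09, adjusted p = 3.36e-05, edgeR) and Upf3a higher (0.34, adjusted p = 0.0204, edgeR), so that 5 members were higher and 1 lower, against 30.1% and 32.3% of all genes (62.4% in either direction).

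The UPF3 paralogs were also set against each other inside each library, which needs no scaling. This ratio of counts, Upf3b to Upf3a, was chosen after the values were seen and is given without a test. It was 0.488, 0.395 and 0.399 in WT RNA-seq and 0.376, 0.568 and 0.456 in FMR1 KO RNA-seq of the standard preparation. It was 1.98, 1.90 and 2.61 in the WT pellet and 2.86, 2.89 and 2.92 in the FMR1 KO pellet. In fraction 5/6 it was 2.3, 3.0 and 2.01 for WT and 2.39, 3.01 and 2.17 for FMR1 KO. All standard footprint libraries thus had more Upf3b than Upf3a counts and all standard RNA-seq libraries fewer. Among low nuclease libraries the ratio was under 1 in every RNA-seq library (highest 0.887) and over 1 in every footprint library except WT pellet replicate 1 (0.892). RNA-seq counts also cover UTRs, and the exons of Upf3a span 5865 nt against 3999 nt for Upf3b; the part of this in the step between the kinds of library was not tested.

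**Figure D2:**
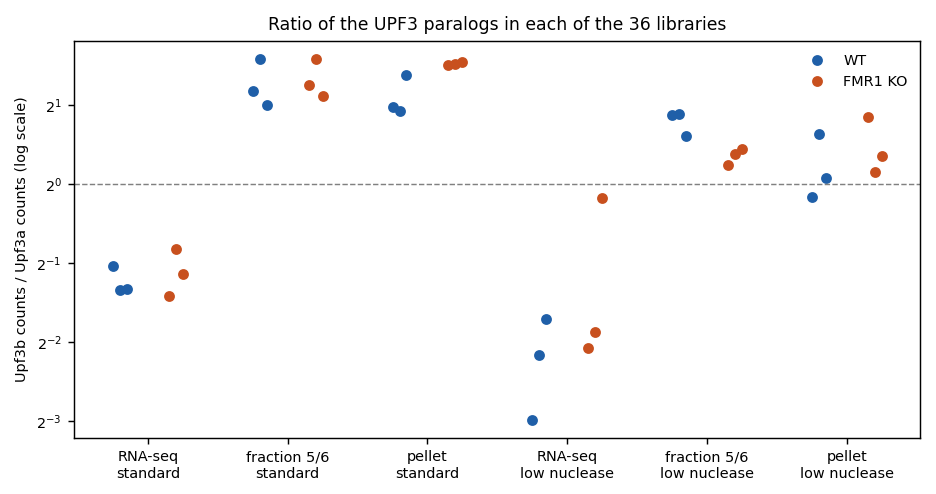
Counts of Upf3b divided by counts of Upf3a (logarithmic axis) in each of the 36 libraries, by kind of library and preparation, with WT in blue and FMR1 KO in orange; the dashed line marks equal counts. Standard RNA-seq libraries lie between 0.376 and 0.568 and standard footprint libraries between 1.90 and 3.01.

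Pellet enrichment set the footprints of the pellet against those of fraction 5/6. Smg1 stood at 96.4, 93.6 and 98.8 CPM in the WT pellet against 28.9, 20.9 and 94.8 CPM in WT fraction 5/6. In FMR1 KO it stood at 112.4, 57.0 and 98.0 CPM in the pellet against 29.9, 32.4 and 59.3 CPM in fraction 5/6. The library labelled WT fraction 5/6 replicate 3 was thus at the level of the pellet for Smg1, and for Smg6 it had 49.9 CPM against 24.6 and 18.4 CPM in the other WT fraction 5/6 libraries and 40.1 to 42.0 CPM in the WT pellet. With all libraries none of the 7 passed the test in either genotype (0.00727% of all genes in WT and 0% in FMR1 KO), with 3 members in WT and 5 in FMR1 KO at an unadjusted p under 0.05, as were 1663 and 3730 of all 13749 genes. DESeq2 called 0 members in WT and 3 in FMR1 KO, with Smg1 and Smg6 higher and Upf3a lower, against 65 and 1518 of all genes.

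Without that library, several members were called. In WT, Smg1 was higher by 1.90 ± 0.18 (log2, SE; adjusted p = 0.000307, edgeR), Smg6 by 0.88 ± 0.14 (adjusted p = 0.00368) and Upf1 by 0.78 ± 0.17 (adjusted p = 0.0154). Upf3b fell by 0.68 on the log2 scale (adjusted p = 0.00792, edgeR). These were 3 members higher and 1 lower, where 10.1% of all genes were called higher and 3.11% lower (13.3% in either direction). The WT value then rests on a pair of fraction 5/6 libraries. In FMR1 KO, whose own libraries stayed the same and whose fit shares the scaling and the estimate of the spread, Smg1 was higher by 1.51, Smg6 by 0.95 and Upf1 by 0.73, and Upf3a fell by 0.60 and Upf3b by 0.41. There 11.1% of all genes were called higher and 2.89% lower (14.0% in either direction). In these standard libraries Upf2 and Smg5 passed in neither genotype. The difference in enrichment between genotypes passed for none of the 7 (0% of all genes). With all libraries, an unadjusted p under 0.05 was found for 765 of all genes and DESeq2 called 41, no member among either.

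**Figure D3:**
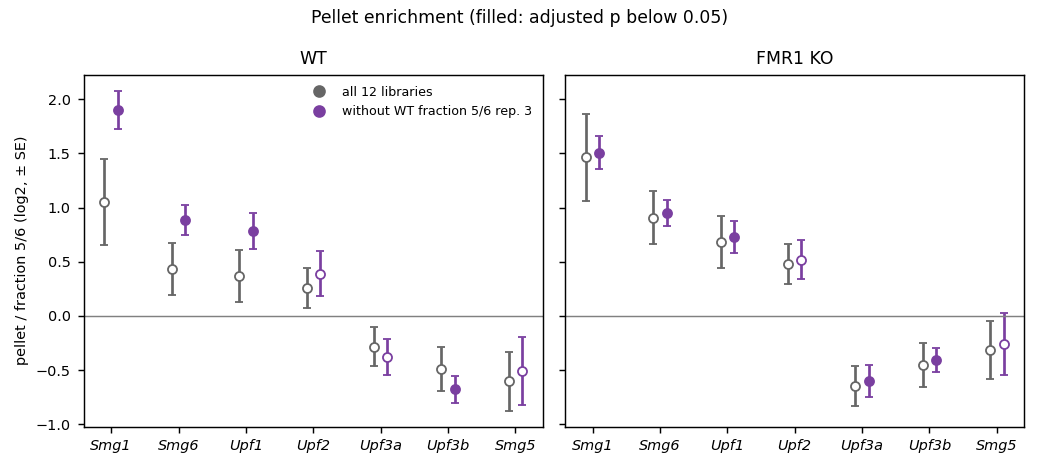
Log2 ratio of pellet to fraction 5/6 footprints with its SE for each NMD factor mRNA in WT and FMR1 KO, from all 12 libraries in grey and without WT fraction 5/6 replicate 3 in purple; filled points have an adjusted p below 0.05. Smg1 moved from 1.05 to 1.90 in WT when that library was left out, and no grey point is filled.

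In the low nuclease preparation, whose libraries are separate, Smg1 stood at 134.0, 128.0 and 127.1 CPM in the WT pellet against 32.3, 61.1 and 48.5 CPM in WT fraction 5/6. It stood at 132.4, 111.3 and 107.4 CPM in the FMR1 KO pellet against 53.5, 56.4 and 53.9 CPM in FMR1 KO fraction 5/6. Smg1 groups did not overlap in either genotype, and its enrichment was 1.57 in WT (adjusted p = 0.000719, edgeR) and 1.31 in FMR1 KO (adjusted p = 0.00188, edgeR). In FMR1 KO Upf2 was also called higher (0.61, adjusted p = 0.0146, edgeR), whereas in WT it was 0.08. Upf1 had 0.34 in WT (adjusted p = 0.23, edgeR) and 0.36 in FMR1 KO and was called in neither. Of all 15929 genes 4165 were called in WT and 4480 in FMR1 KO. Upf3b was lower in WT, by -0.81 (adjusted p = 0.00612, edgeR), and -0.05 in FMR1 KO (adjusted p = 0.846, edgeR). Neither Upf3a (-0.16, adjusted p = 0.591, edgeR) nor Smg6 (0.75, adjusted p = 0.573, edgeR) was called in FMR1 KO. The Smg6 value in WT turned to -0.70 with an SE of 0.89, and its low nuclease libraries scattered widely, with 221.9, 101.9 and 31.5 CPM in WT fraction 5/6.

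The nuclease preparation changed Smg5 far more than any other member. In the standard pellet Smg5 stood at 63.8 to 113.9 CPM over both genotypes. In the low nuclease pellet it stood at 5281, 5415 and 4770 CPM in WT and at 4299, 1922 and 3602 CPM in FMR1 KO. The standard preparation was 47.7-fold lower in WT (log2 fold change -5.58, SE 0.40, adjusted p = 2.83e-05, edgeR) and 24.4-fold lower in FMR1 KO (-4.61, SE 0.38, adjusted p = 8.41e-05, edgeR). Ordered from the lowest among the 15035 genes tested, Smg5 was at percentile 0.7 in WT and 1.1 in FMR1 KO. The RNA-seq libraries grouped here with the low nuclease preparation did not share the rise. Smg5 stood there at 96.3, 6.94 and 80.5 CPM in WT and at 85.006, 6.13 and 3.40 CPM in FMR1 KO. By level per kb Smg5 lay at percentile 99.8 of the low nuclease WT pellet and 79.0 of the standard one. Peaks of the low nuclease libraries were not analysed here, so where on the gene these counts lie was not measured.

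**Figure D4:**
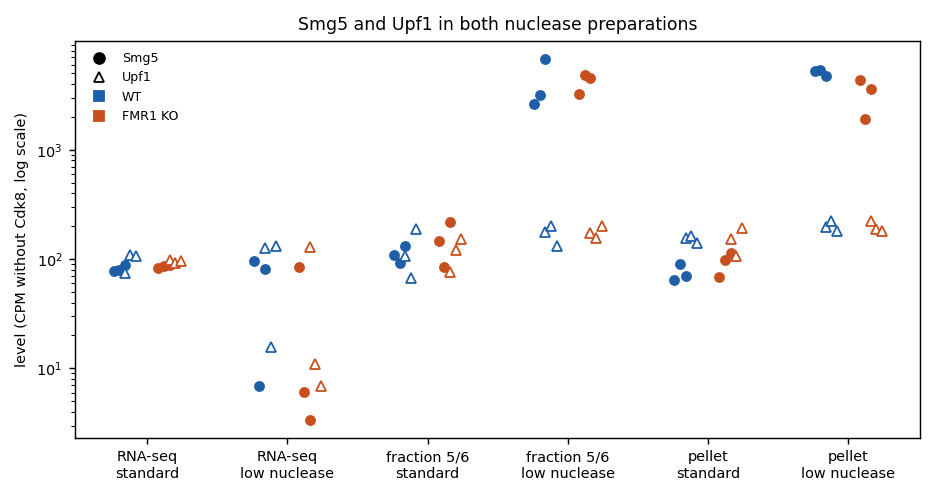
Levels of Smg5 (filled circles) and Upf1 (open triangles) in CPM without Cdk8 on a logarithmic axis, by kind of library and nuclease preparation, with WT in blue and FMR1 KO in orange; each point is a library. Smg5 lies between 1922 and 6790 CPM in low nuclease footprints and between 63.8 and 220.1 CPM in standard footprints, while Upf1 footprints lie between 67.1 and 223.7 CPM in both.

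Between preparations, 2 members were called higher and 1 lower in the standard pellet of each genotype, against 16.7% of all genes higher and 22.9% lower in WT (39.7% in either direction) and 13.7% and 15.6% in FMR1 KO (29.3%). The higher ones were Upf2, by 0.55 in WT and 0.48 in FMR1 KO, and Upf3b, by 0.85 and 0.79 on the log2 scale. With library size alone the median of all genes moved by -0.54 and -0.49, and neither Upf2 nor Upf3b was called. The Upf2 call was also lost in WT without replicate 1 of either preparation (adjusted p = 0.0591 and 0.0505, edgeR) and in FMR1 KO without any of 4 single pellet libraries. The Smg6 libraries differed among themselves in the low nuclease pellet, with 245.4, 49.0 and 57.8 CPM in FMR1 KO, and the Smg6 difference, -1.12 with an SE of 0.58 there, was not called (adjusted p = 0.161, edgeR).

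On the transcripts of the members the standard libraries held 311 peaks, 187 of them in the pellet and 124 in fraction 5/6. Upf1 held 163, Upf2 50, Upf3b 46, Smg6 29 and Upf3a 20. Smg1, with the longest coding sequence, held only 2, and Smg5 held 1. Almost all zeniths, 308, lay in coding sequence, 3 lay in a 5′ UTR and 0 in a 3′ UTR. Heights ran from 0 to 33 with a median of 13. Libraries were unequal: Upf1 had 1 peak in WT pellet replicate 1 against 29 and 22 in the other WT pellet libraries, although its level there, 156.1 CPM, was alike.

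Few sites recurred. A peak counted as shared where another library had a zenith within 6 nt. None of the 187 pellet peaks of the members was found in all 6 pellet libraries (1.46% of all pellet peaks were), and 59 (31.6%) were found in 2 or more of them (54.3% of all). The most widely shared reached 3 pellet libraries, and they include the Upf1, Upf2 and Upf3b codon 377 sites printed above.

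Zeniths were unevenly placed along the coding sequences. Upf3b had 39 of its 46 zeniths (84.8%) in the last 25% of the coding sequence, 20 of 24 in the pellet and 19 of 22 in fraction 5/6, and at least 1 in each of the 12 libraries. Over all transcripts 28.5% of coding zeniths lay there, and of 4042 transcripts with 10 or more coding zeniths, 70 (1.73%) had a share at or above that of Upf3b. Upf3a had 10 of 20 there, from 5 libraries. Upf2 went the other way, with 2 of 50, Smg6 had 0 of 29, and Upf1 was spread evenly, with 37, 45, 44 and 35 in successive segments of 25%. The split into 4 segments was made after the zeniths were seen, and the peaks of 1 transcript are not independent, so the shares are a description without a test.

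**Figure D5:**
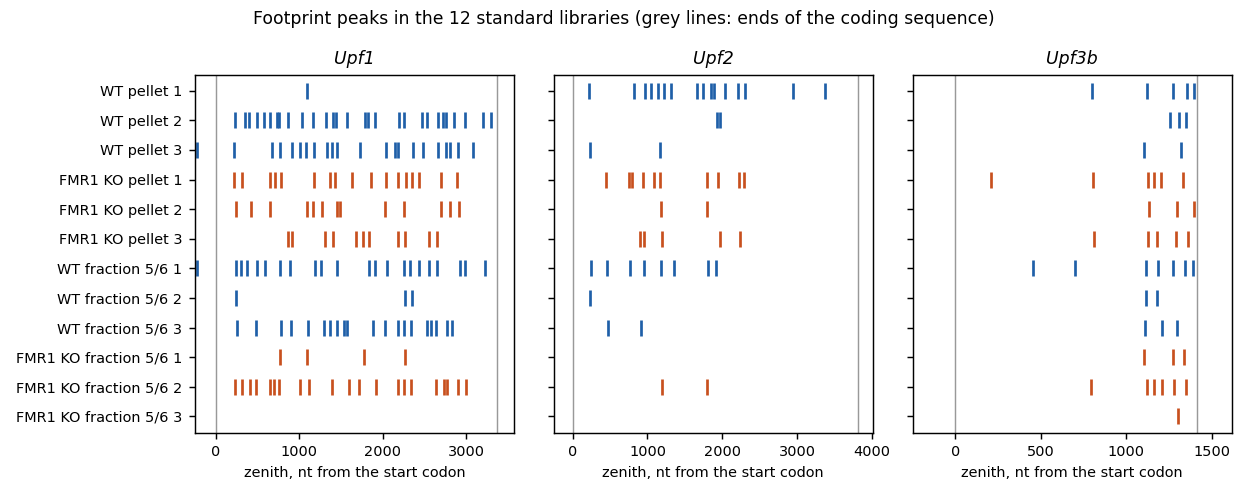
Zeniths of the footprint peaks on Upf1, Upf2 and Upf3b (ticks; distance from the start codon in nt) in the 6 pellet and 6 fraction 5/6 libraries of the standard preparation, with WT in blue and FMR1 KO in orange; grey lines mark the ends of the coding sequence. Upf3b ticks gather towards the stop codon in each of the 12 libraries, while those of Upf1 spread over the coding sequence.

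Over the means of the 12 groups, the pattern of levels of each member was matched to other genes by Pearson's r of log2 CPM among 9407 genes, as a description, since the groups share the kind of library and the preparation. Closest to Upf3b were Luc7l3 (0.994), which encodes a splicing factor, and Ssb (0.992), which encodes the La RNA-binding protein. Closest to Smg1 were Unc13b (0.987), which encodes a factor of synaptic vesicle priming, and Akap6 (0.981), which encodes an anchor of protein kinase A. Closest to Smg5 were Mafa (0.993) and Prpf4b (0.991), closest to Upf1 were Fan1 and Ctnnd1 (0.991 each), and closest to Upf2 were Smarcad1 (0.994) and Zfp638 (0.993). Upf3a (Bicdl1 and 2410131K14Rik, 0.959 each) and Smg6 (Rph3a, 0.947, and Timeless, 0.936) had looser matches. Among the members themselves Upf1 and Upf2 were most alike (0.934), and Upf3a and Upf3b had an r of -0.40.

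Other genes of the pathway were taken from lists set with earlier results of these data known. In the WT pellet, where 30.6% of all genes had a higher and 35.9% a lower occupancy (log2), 3 of 6 exon junction complex genes were higher, such as the helicase Eif4a3 (0.83) and Magoh (1.01), and 2 lower, and Casc3 had -0.15. Of 4 translation termination genes 3 were higher, with Etf1 at 0.69, Gspt1 at 1.62 and Gspt2 at 2.68, and 1 was lower. Among 10 decapping, deadenylation and decay genes 4 were higher, with Cnot1 at 1.35, and 3 lower, with Cnot7 at -1.11, while Cnot8 (0.16) was not called. Of the Staufen genes Stau1 was higher (1.10) and Stau2 was not called (0.21). Of 7 mRNAs known as NMD targets 2 were higher, among them Arc (0.62), 3 were lower, among them Atf4 (-2.43), and Atf3 (0.25) was not called. All these values carry the shift of the median by -1.11 under library size alone.

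Among the listed genes, Dcp1a, a decapping activator, passed for occupancy in a genotype comparison. It stood at 159.3, 301.0 and 224.5 CPM in the FMR1 KO pellet and at 9.92, 10.9 and 8.05 CPM in the WT pellet, and its pellet occupancy was higher by 4.53 ± 0.42 in FMR1 KO (log2, SE; adjusted p = 0.00104, edgeR). Its pellet abundance, higher by 4.70, was not called (adjusted p = 0.0783, edgeR), nor was its difference in enrichment, 5.42 (adjusted p = 0.823, edgeR). It was also high in single fraction 5/6 libraries of each genotype, at 198.0 CPM in WT replicate 2 and 165.0 CPM in FMR1 KO replicate 2, against 10.2 to 13.8 CPM in the other fraction 5/6 libraries. In the low nuclease preparation the same difference was -1.25, of the opposite sign, and without replicate 3 of every group the standard value was 4.61 (adjusted p = 0.0654, edgeR).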

How the data were processed

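RPFs and RNA of mouse brain were analysed from gene counts and peak files. The authors deposited counts per gene, whole numbers without normalization. Their notes name Cutadapt 2.10 for adapters, Bowtie2 2.3.5 for taking out rRNA and other non-coding reads, STAR 2.7.8a for alignment (GRCm38), Picard and SAMtools 1.19.2 for dropping duplicates, and featureCounts 2.2.0. The 3 footprint replicates of a group were pooled after linker ligation, so for footprints pool and group cannot be told apart. The p-values measure the spread between the libraries. Peak heights are the coverage signal that the authors gave for each peak, called per library.

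Cdk8 was left out. Rows without a gene name (up to 0.607% of counts) stayed in the totals and could enter the fits. They were left out of the matching of patterns. Protein-coding genes, or genes without a match in GENCODE M21, were fitted in edgeR 4.0.16 (R 4.3.3, limma 3.58.1) with TMM, filterByExpr and the quasi-likelihood test; p-values were adjusted by Benjamini-Hochberg over all genes tested, with a threshold of 0.05, and the scripts were tested on simulated counts. The genes named are the 7 members, the listed pathway genes called in a genotype comparison with up to 3 examples a list in alphabetical order, the checks, and the 2 genes most like each member among those with at least 10 CPM (log2 with a prior count of 2). Alternatives were DESeq2 1.42.0, library size alone, other filters, Cdk8 kept, a replicate block, the low nuclease libraries, other peak tolerances and each library left out. The members and lists were chosen with earlier results of these data known. No 2 replicates agreed within counting noise. Sequences were read by transcript position from the reference transcripts of GENCODE M21. The list of other NMD factors is not reported here.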

Additional observations from a re-analysis of the deposited data

Results flagged for a closer look

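Smg5 was at a mean of 4193 CPM in WT fraction 5/6 and 4181 CPM in FMR1 KO fraction 5/6 of the low nuclease preparation, libraries that no comparison above sets against the standard ones. The single libraries had 2610, 3178 and 6790 CPM in WT and 3238, 4775 and 4529 CPM in FMR1 KO. They stand out because standard fraction 5/6 had 85.5 to 220.1 CPM of Smg5 over both genotypes, without overlap. The difference between preparations in fraction 5/6 was not tested.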

How the results depend on the processing

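The 27 member values called with all libraries were fitted 636 times under other settings. They kept their direction and call 594 times and were no longer called 34 times. They changed sign 8 times, 1 of these with a call in the other direction. The 64 values not called changed sign in 136 of 1352 fits and became called in 45 with the same sign and 4 with the other. Library size alone, whose median shifts stand beside the results, gave (counts over all genes in brackets) 2 higher and 1 lower for pellet occupancy in WT (1328 and 10740 of 16437), 3 higher and 2 lower in FMR1 KO (1501 and 10329), 1 higher and 2 lower for fraction 5/6 occupancy in WT (1098 and 10041 of 16445), 2 higher and 3 lower in FMR1 KO (1314 and 8672), and for the standard against the low nuclease pellet 0 higher and 1 lower in WT (302 and 6377 of 15035) and 0 higher and 3 lower in FMR1 KO (437 and 5532). It turned occupancy in the pellet to -0.13 for Smg5, -0.45 for Smg1 and -0.24 for Smg6 in WT and to -0.53 for Smg1 and -0.23 for Smg6 in FMR1 KO. The low nuclease preparation gave 2 members higher and 1 lower for pellet occupancy in WT (3699 and 3036 of 16042), 2 higher and 1 lower in FMR1 KO (3570 and 3107), 3 higher and 1 lower for fraction 5/6 occupancy in WT (3947 and 4209 of 16176), 2 higher and 2 lower in FMR1 KO (3574 and 3694), 1 higher and 1 lower for enrichment in WT (2140 and 2025 of 15929) and 2 higher and 0 lower in FMR1 KO (2017 and 2463). It turned Smg5 in pellet abundance to -0.54, Smg1 in fraction 5/6 to 0.20, Upf3b pellet occupancy in FMR1 KO to -0.17, Upf3b and Upf2 fraction 5/6 occupancy in FMR1 KO to -0.13 and -0.47, and Smg6 enrichment in WT to -0.70. Among other values not called, it turned Smg5 enrichment in WT from -0.60 to 0.44, Upf3a fraction 5/6 occupancy in WT from 0.20 to -1.13 and the Upf3b difference in fraction 5/6 from 0.13 to -0.53. Low nuclease footprints with standard RNA-seq gave 6 members higher and 0 lower for pellet occupancy in FMR1 KO (5134 and 5516 of 16494), and for fraction 5/6 occupancy 5 higher and 1 lower in WT (4651 and 4906 of 16516) and 4 higher and 1 lower in FMR1 KO (4296 and 5002), and Dcp1a was -1.25 with either set of low nuclease libraries. DESeq2 called 2 members higher and 1 lower for enrichment in FMR1 KO (1173 and 345 of 13749). The causes were not tested.

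With single libraries or replicate numbers left out, members called higher ran from 5 to 6 and lower from 0 to 1 for pellet occupancy in FMR1 KO, from 4 to 5 and 0 to 1 for fraction 5/6 occupancy in WT, and lower from 0 to 1 in FMR1 KO. For enrichment they ran from 0 to 3 higher and 0 to 1 lower in WT and from 0 to 3 higher and 0 to 2 lower in FMR1 KO, all moved most by WT fraction 5/6 replicate 3. For the standard against the low nuclease pellet they ran from 1 to 2 higher in WT and from 0 to 2 in FMR1 KO. The RNA-seq difference of Upf3b between genotypes ran from -0.0212 to 0.35 and the Smg1 difference in fraction 5/6 from -0.83 to 0.27. The summed level of the members in the WT pellet, 434.4 CPM, was 237.2 CPM with Cdk8 kept and 535.0 CPM with TMM over all libraries, which gave 249.6 CPM in WT RNA-seq against 422.2 CPM. Pellet peaks found in 2 or more libraries numbered 24 with zeniths within 3 nt, 93 within 12 nt and 23 among peaks at or above the median height, against 59.

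Same-numbered libraries deviated together weakly at most (11 of 45 pairs with r over 0.1, from -0.13 to 0.24). The highest values were between the FMR1 KO pellet and WT fraction 5/6, 0.241 in replicate 3 and 0.217 in replicate 2. With the replicate number as a block, 6 members were called higher in pellet occupancy in WT, and no member's call changed. The shallowest standard footprint library, FMR1 KO fraction 5/6 replicate 3, held 4284209 counts, of which the lowest of the members, Upf3a, had 98.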
